A study of Mus musculus with 5 samples.

Results

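Granins and prohormone processing enzymes were followed in the dorsal pancreatic bud of mouse embryos that carried 0 or 1 working copies of Ptf1a. The members were the probe sets annotated to exactly 1 gene symbol among Chga, Chgb, Scg2, Scg3, Scg5, Pcsk1, Pcsk2, Cpe, Ptprn and Ptprn2. They came to 11 of the 45037 probe sets tested and covered 9 of the 10 genes. Pcsk2 is paired with no probe set in the annotation used here, so the convertase encoded by it was not analysed. Cpe and Ptprn2 had 2 probe sets each and the other 7 genes had 1 each. All arrays measured buds of C57BL/6J background at E10.5 (embryonic days after mating), from crosses between Ptf1a heterozygous parents. The null mutant group had 3 arrays and the heterozygote group 2. No wild-type bud was among these samples, so the comparison group itself carried 1 mutant allele. Each array was given RNA pooled from 3 buds whose mesenchyme had been cut away by hand, amplified in 2 linear rounds from oligo(dT) primers. The labels do not say from which litters the pools came, so p-values measure the spread between pools.

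Granins are acidic proteins stored with peptide hormones in dense-core secretory granules, where they help granules form and are themselves cut into peptides. The prohormone convertases Pcsk1 and Pcsk2 cut hormone precursors after pairs of basic residues, and carboxypeptidase E, from Cpe, trims the basic residues left behind. In the pancreas these genes mark endocrine cells, and many of them are also active in neurons and in adrenal and pituitary cells. Early glucagon cells form in the dorsal bud at about this stage. In whole-bud RNA, fewer cells of a type and less RNA per cell cannot be told apart.

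Genes of this group are known for cAMP response elements close to their start sites, so the stretch before the start is shown for the members in which a search found that element. The search covered the 250 bases before each RefSeq start on GRCm38.p6, on both strands, for TGACGTCA and for TGACGTAA, which differs from it by 1 letter. The table held promoters for 9 of the 10 genes, 10 starts in all, and had none for Cpe. The first form was present before Scg2, Chgb and Pcsk1, beginning 68, 72 and 78 bases before the start, and in 1.55% of all 32851 promoters of the same length. The second form was present before Chga, beginning 44 bases before its start, and in 0.447% of all promoters. Other variants with 1 letter changed were not searched, so no weight is put on that share. The 100 bases before each of the 4 starts are given 5′ to 3′ on the gene's strand, with the element in capitals. Scg2 lies at chr1:79440027-79440126 (minus strand), Chgb at chr2:132781542-132781641 (plus), Chga at chr12:102554841-102554940 (plus) and Pcsk1 at chr13:75089757-75089856 (plus).
Scg2: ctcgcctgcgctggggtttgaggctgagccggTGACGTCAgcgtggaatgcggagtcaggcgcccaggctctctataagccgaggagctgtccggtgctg
Chgb: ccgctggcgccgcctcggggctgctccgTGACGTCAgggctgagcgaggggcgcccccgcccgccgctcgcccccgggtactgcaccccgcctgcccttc
Chga: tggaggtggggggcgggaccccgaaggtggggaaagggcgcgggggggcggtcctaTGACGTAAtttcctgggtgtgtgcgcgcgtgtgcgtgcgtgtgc
Pcsk1: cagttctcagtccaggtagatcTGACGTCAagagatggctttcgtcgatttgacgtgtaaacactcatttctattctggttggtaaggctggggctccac

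Ptf1a binds DNA as part of a complex that recognises an E-box, CANNTG, beside a TC box, TGGGAAA. An E-box was found before 7 of the 10 member starts, which belong to 7 genes, and in 66.2% of all promoters. Its presence does not set these genes apart. The TC box was found before 0 of the 10 member starts and in 6.82% of all promoters. A match or its absence in this window is a description of the letters only.

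Values were log2 intensities after quantile normalisation. The deposited intensities had array medians of 13.7 to 17.5, and correlations between arrays over all probe sets lay between 0.838 and 0.862. The background level of an array was set by 27 Bacillus subtilis control probe sets at their 95th percentile, 3.03 to 3.29 on the log2 scale, and 60.9% to 65.2% of probe sets lay above it. The Ptf1a probe set 1419424_at read 7.10 and 7.33 in heterozygotes and 5.21, 6.07 and 5.00 in nulls. The labels do not give the deleted part of the gene, so it is not known whether that probe set can check the genotypes. The epithelial and bud genes Pdx1, Cdh1 and Epcam were above background on all 5 arrays at each of their probe sets. With 5 arrays, precision is limited throughout by their number.

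All 9 measured members gave signal above background in the bud, and none passed the test between genotypes. Each gene's brightest probe set was above background on all 5 arrays, against 57.0% of the 18193 genes with 1 symbol. Of the 9 genes, 5 were higher and 4 lower in nulls, with a median log2 difference of 0.12 (null minus heterozygote), against -0.012 over all genes, 49.1% of which were higher. In limma's test with adjustment over all probe sets, 0 of 11 member probe sets passed at an adjusted p under 0.05, against 0.0% of all probe sets. A second limma fit, in which the prior variance follows signal level and resists outliers (the trended fit), also called 0 members, against 0.0178% of all probe sets. The Ptf1a probe set did not pass in either fit (limma adjusted p = 0.651 untrended and 0.457 trended). At an unadjusted p under 0.05, 1 of the 11 member probe sets, that of Scg2, passed in each fit, against 5.52% of all probe sets untrended and 4.93% trended. Without overlap between genotypes were 2 of the 11, those of Scg2 and Scg5, both higher in nulls. Among all probe sets 9.9% were free of overlap with nulls higher and 10.1% with nulls lower.

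**Figure D1:**
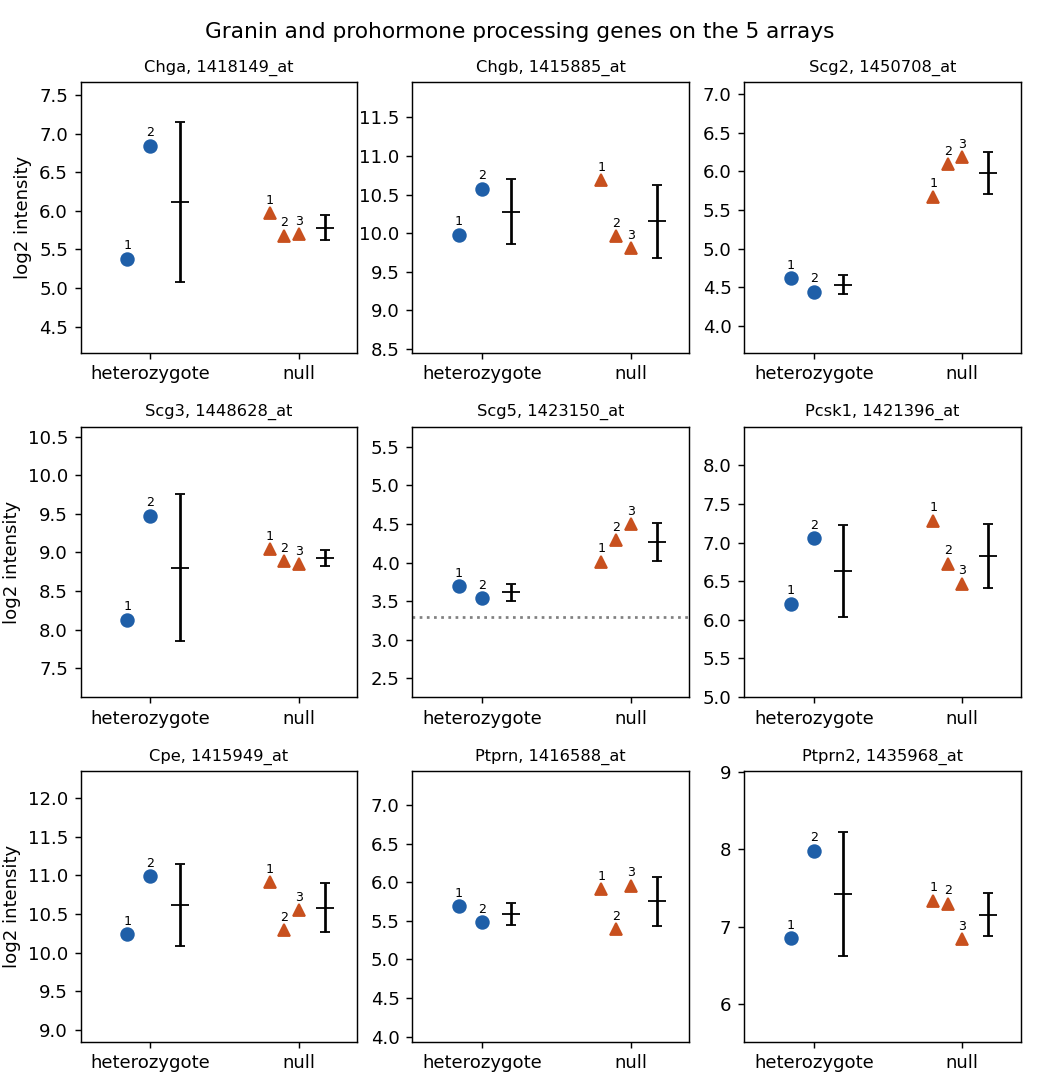
Log2 intensity of the brightest probe set of each of the 9 member genes on the 5 arrays. Circles are heterozygotes, triangles nulls, small digits the replicate numbers, crossbars the mean with 1 SD (n = 2 and n = 3), and the dotted line in the Scg5 panel the highest background level; each panel spans the same number of log2 units, and only Scg2 and Scg5 have all nulls above both heterozygotes.

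Secretogranin II, from Scg2, is a granin that is cut into the peptide secretoneurin, and it showed the largest genotype difference among the 9 genes' brightest probe sets. At 1450708_at the log2 intensity was 4.62 and 4.44 in heterozygotes and 5.67, 6.09 and 6.18 in nulls. The null arrays lay together above the pair of heterozygotes, which differed from each other by 0.18. The deposited intensities before normalisation stood the same way, at 27.8 and 20.5 in heterozygotes and 57.1, 52.9 and 74.4 in nulls. The means were 4.53 ± 0.13 (SD, n = 2) and 5.98 ± 0.27 (SD, n = 3), which is 2.73-fold higher in nulls. The log2 difference was 1.45 (SE 0.37, unadjusted 95% confidence interval 0.50 to 2.40), and it did not pass (limma adjusted p = 0.632 untrended and 0.928 trended). The adjusted p ranged from 0.443 to 0.928 over the alternatives run.

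Neurons also make Scg2, so a list of neuron and autonomic progenitor markers was read on the same arrays. Of its 16 measured genes 8 were higher and 8 lower in nulls, with a median log2 difference of -0.022, and each was above background on at least 1 array. Their summed linear intensity after normalisation was 1789 and 2286 in heterozygotes and 1976, 2483 and 2351 in nulls, so the groups overlapped. The brightest genes weigh most in such a sum, here Nefm and Nefl. Single markers went both ways, and none passed. Dcx, a microtubule protein of young neurons, had a log2 difference of 1.00 at its brightest probe set with all nulls above both heterozygotes (limma adjusted p = 0.935). Its 4 probe sets, all above background on every array, ranged from 0.25 to 1.11. Genotypes overlapped at 1418141_at and 1448974_at. Ina, a neuronal intermediate filament, had 1.41 at its brightest probe set with all nulls above both heterozygotes (limma adjusted p = 0.853). Its other 2 probe sets overlapped between genotypes, with means lower in nulls. Each was above background on 2 arrays, so no fold is given for them. Elavl3, a neuronal RNA-binding protein, went the other way, at 3.82 and 4.90 in heterozygotes and -1.03, 3.14 and 3.21 in nulls, with 1 null above background (limma adjusted p = 0.986). Tubb3, a neuronal tubulin, was above background on 1 heterozygote and 2 null arrays, with overlapping groups. Summed neural crest and glia markers (7 genes) read 198 and 182 in heterozygotes and 193, 294 and 263 in nulls. The part of these cells in the Scg2 values was not tested.

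Chromogranin A, the granin used most often as an endocrine marker, did not separate the genotypes. Chga at 1418149_at read 5.38 and 6.84 in heterozygotes and 5.97, 5.68 and 5.69 in nulls. All 3 nulls lay between the 2 heterozygotes, whose gap of 1.46 was wider than the null range of 0.29. The log2 difference was -0.33 (SE 0.55, 95% confidence interval -1.74 to 1.08, limma adjusted p = 0.999).

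Chromogranin B, a second major granule matrix protein, also overlapped between genotypes. Chgb at 1415885_at read 9.98 and 10.58 in heterozygotes and 10.69, 9.96 and 9.81 in nulls. Null replicate 1 was the highest array and null replicate 3 the lowest, so the null range of 0.88 held both heterozygotes. The log2 difference was -0.13 (SE 0.46, 95% confidence interval -1.32 to 1.07).

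Secretogranin III, which ties chromogranin A to the granule membrane, did not separate the genotypes either. Scg3 at 1448628_at read 8.13 and 9.48 in heterozygotes and 9.04, 8.89 and 8.85 in nulls. The nulls were within 0.20 of each other and stood between the heterozygotes, which were 1.34 apart. The log2 difference was 0.12 (SE 0.51, 95% confidence interval -1.21 to 1.45).

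Scg5 encodes 7B2, the chaperone that Pcsk2 needs to mature. At 1423150_at it read 3.69 and 3.54 in heterozygotes and 4.01, 4.29 and 4.50 in nulls. The background levels of these arrays were, in the same order, 3.03, 3.29, 3.08, 3.17 and 3.07, so the heterozygotes were the closest to background. The nulls lay above both heterozygotes, as for Scg2, by a log2 difference of 0.65 (SE 0.36, 95% confidence interval -0.28 to 1.58, limma adjusted p = 0.985 untrended and 0.977 trended). With an offset of 16 added before log2, which damps dim values, the difference was 0.32.

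The enzymes that process prohormones were as variable within a genotype as between genotypes. Pcsk1 at 1421396_at read 6.21 and 7.05 in heterozygotes and 7.28, 6.73 and 6.47 in nulls. Null replicate 1 was the highest array and heterozygote replicate 1 the lowest. The log2 difference was 0.19 (SE 0.48, 95% confidence interval -1.04 to 1.43).

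Cpe at its bright probe set 1415949_at read 10.24 and 10.99 in heterozygotes and 10.91, 10.29 and 10.55 in nulls. The nulls fell inside the span of the heterozygotes, and the log2 difference was -0.035 (SE 0.43, 95% confidence interval -1.16 to 1.09), the smallest of the 9 genes. Its other probe set, 1439437_x_at, whose suffix marks possible matches to other transcripts, was above background on 2 null arrays and on neither heterozygote, and no fold is given for it.

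Ptprn and Ptprn2 encode IA-2 and phogrin, phosphatase-like proteins of the granule membrane that are known as autoantigens in type 1 diabetes. Ptprn at 1416588_at read 5.69 and 5.48 in heterozygotes and 5.92, 5.39 and 5.95 in nulls, a log2 difference of 0.17 (SE 0.38, 95% confidence interval -0.82 to 1.15). Null replicate 2 was the lowest of the 5 arrays and null replicates 1 and 3 were the highest. Ptprn2 at 1435968_at read 6.85 and 7.99 in heterozygotes and 7.34, 7.30 and 6.84 in nulls, a log2 difference of -0.26 (SE 0.49, 95% confidence interval -1.53 to 1.01). At its dimmer probe set, 1425724_at, the values were 4.39 and 5.12 against 3.97, 5.17 and 3.59, with a log2 difference of -0.51 (SE 0.62). Both probe sets of Ptprn2 were higher on heterozygote replicate 2 than on replicate 1, and overlapped between genotypes.

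**Figure D2:**
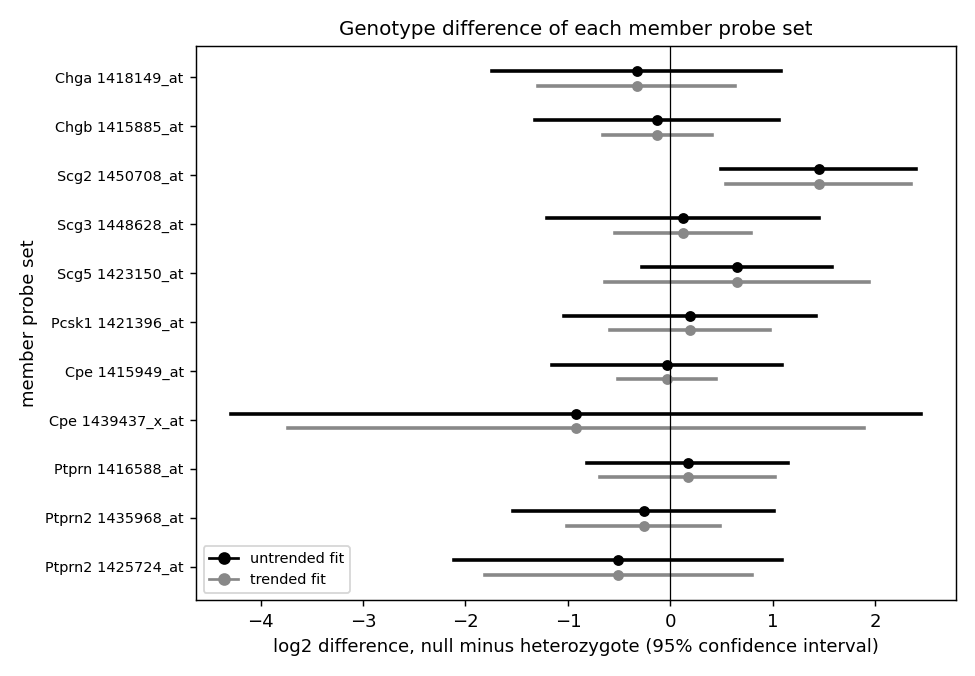
Log2 difference (null minus heterozygote, horizontal axis) of each of the 11 member probe sets with its unadjusted 95% confidence interval, in the untrended limma fit (black) and the trended fit (grey). Scg2 alone has intervals that leave out 0, and Cpe 1439437_x_at, near background, has the widest.

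The intervals say how large a difference could have been missed. A 2-fold difference is 1 on the log2 scale, and 0 of the 9 genes had an untrended interval that lay wholly inside 2-fold in both directions. In the trended fit 4 did, namely Chgb (-0.66 to 0.41), Cpe (-0.51 to 0.44), Scg3 (-0.54 to 0.79) and Pcsk1 (-0.59 to 0.98). The values of the other 5 genes leave a 2-fold difference within reach in one direction or, for Scg2, include it.

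For most members the pair of heterozygote arrays differed from each other more than the genotypes did. Their gap exceeded the genotype difference in 7 of the 9 genes, a share not far from the 64.6% of all genes. Heterozygote replicate 2 was above replicate 1 in 6 of 9 (Chga, Chgb, Scg3, Pcsk1, Cpe and Ptprn2), against 50.9% of all genes, while Scg2, Scg5 and Ptprn had the reverse order. Relative to each gene's own mean, the median over the 9 genes on heterozygote replicate 1 was -0.41, on heterozygote replicate 2 it was 0.37, and the nulls had 0.23, -0.022 and -0.047. The median over all genes stayed between 0.018 and 0.040 on the 5 arrays. Without heterozygote replicate 1 the members' median genotype difference was -0.41, and without heterozygote replicate 2 it was 0.40, so its sign depended on which heterozygote array was kept. Without heterozygote replicate 2 the differences of Chga, Chgb, Cpe and Ptprn2 became 0.40, 0.17, 0.34 and 0.31. Without heterozygote replicate 1 those of Pcsk1 and Scg3 became -0.23 and -0.55. Leaving out a null array also turned the sign of Pcsk1 (-0.034 without replicate 1), Cpe (0.11 without replicate 2) and Chgb (0.046 without replicate 3).

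Gcg, which encodes the glucagon precursor that these enzymes cut, was read beside them. It was 10.57 and 11.85 in heterozygotes and 11.77, 11.50 and 11.34 in nulls, so it too was lowest on heterozygote replicate 1 and highest on heterozygote replicate 2. Its log2 difference was 0.33 (SE 0.51, limma adjusted p = 0.999). The median of 9 measured endocrine transcription factors, relative to each gene's mean, was -0.38 for heterozygote replicate 1, 0.65 for replicate 2, and 0.13, 0.12 and -0.48 in nulls. That list was lowest on null replicate 3, where the median of the 9 members was near 0. The part of endocrine cell content in the members' values was not tested.

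**Figure D3:**
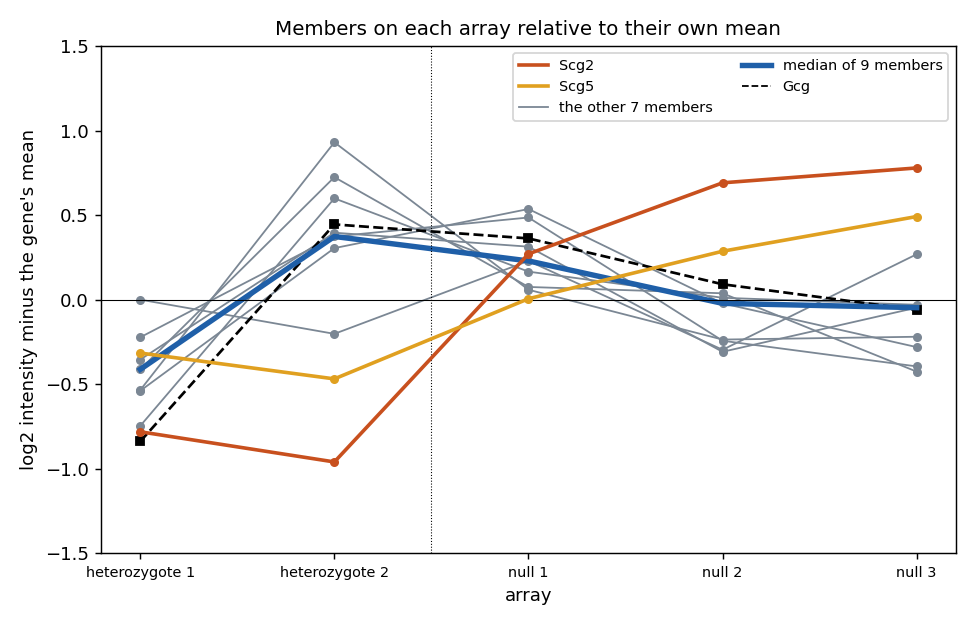
Log2 intensity minus the gene's mean over the 5 arrays (vertical axis) for the 9 members, their median and Gcg. Lines join the values of 1 gene and the arrays have no order; the median and Gcg are lowest on heterozygote replicate 1 and highest on heterozygote replicate 2, while Scg2 and Scg5 are lowest on heterozygote replicate 2.

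Other enzymes of precursor processing were taken from a list of 19, of which 18 were measured. In nulls 11 were higher and 7 lower (median log2 difference 0.11), and 0 passed in either limma fit. Free of overlap were 2 with nulls higher and 3 with nulls lower, against 9.82% and 10.1% of all genes. Cpm, a membrane carboxypeptidase that removes basic residues at the cell surface, read 7.12 and 8.04 in heterozygotes and 9.37, 9.35 and 8.83 in nulls. All nulls were above both heterozygotes, by a log2 difference of 1.60 (SE 0.46, limma adjusted p = 0.736 untrended and 0.201 trended), and its other probe set had 1.44. Pam, which amidates peptide hormones at their end, read 5.96 and 4.64 against 6.26, 7.17 and 6.54, a log2 difference of 1.36 (SE 0.57, limma adjusted p = 0.935). Qpct, a glutaminyl cyclase, was above background on 0 arrays, so no fold is given.

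Among 36 measured granule and exocytosis proteins 17 were higher and 19 lower in nulls (median log2 difference -0.057), and 0 passed in either limma fit. Stxbp5l, a syntaxin-binding protein, read 4.93 and 5.48 in heterozygotes and 6.18, 6.55 and 6.72 in nulls, a log2 difference of 1.28 (SE 0.40, limma adjusted p = 0.796). The lowest among its 3 probe sets was 0.69, and 2 of the 3 were above background on all 5 arrays. Rab27a, a small GTPase that docks granules, had 1.02 at its brightest probe set (SE 0.36, limma adjusted p = 0.855), and overlapped between genotypes at 1425285_a_at, with -0.052. At its probe set 1425284_a_at both heterozygotes and no null lay above background. There the heterozygote mean was 1.9-fold above the background level of the null arrays, and Rab27a did not pass (limma adjusted p = 0.758). Its remaining probe set was above background on no array. Slc30a8, the zinc transporter of insulin granules, was above background on 1 heterozygote and 2 null arrays, with overlapping groups, and no fold is given.

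The substrates of the pathway gave a like picture. Of 19 measured prohormone and neuropeptide precursors 11 were higher and 8 lower (median log2 difference 0.24), and 0 passed in either limma fit. Only 8 of the 19 were above background on all 5 arrays, 4 of them higher in nulls. Gast, Adcyap1 and Grp were above it on no array. The median was the value of Ppy, which was above background on 1 array. Iapp, the precursor of islet amyloid polypeptide, read 8.61 and 9.27 in heterozygotes and 9.61, 9.98 and 9.71 in nulls. The nulls were above both heterozygotes, by a log2 difference of 0.83 (SE 0.40, limma adjusted p = 0.962), and its 4 probe sets ranged from 0.37 to 0.83. Nts and Gip, precursors of neurotensin and of a gut incretin, were above background on 1 and 2 arrays and had overlapping groups. The summed intensity of this list was 2690 and 5269 in heterozygotes and 5071, 4675 and 4385 in nulls, and Gcg, its brightest gene, weighs most in it.

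Nulls had higher values for 3 and lower values for 6 of the 9 endocrine transcription factors (median log2 difference -0.010), with 0 passing in either limma fit and all groups overlapping. The factors with the lowest p were Insm1, a zinc finger factor of endocrine progenitors, at -0.69 (SE 0.44), Nkx2-2, a homeodomain factor of islet cells, at -0.44 (SE 0.43), and Pax6, a paired box factor of islet cells, at 0.30 (SE 0.38). The 5 probe sets of Pax6 ranged from -0.85 to 0.53, and 4 of the 5 were above background on all 5 arrays.

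**Figure D4:**
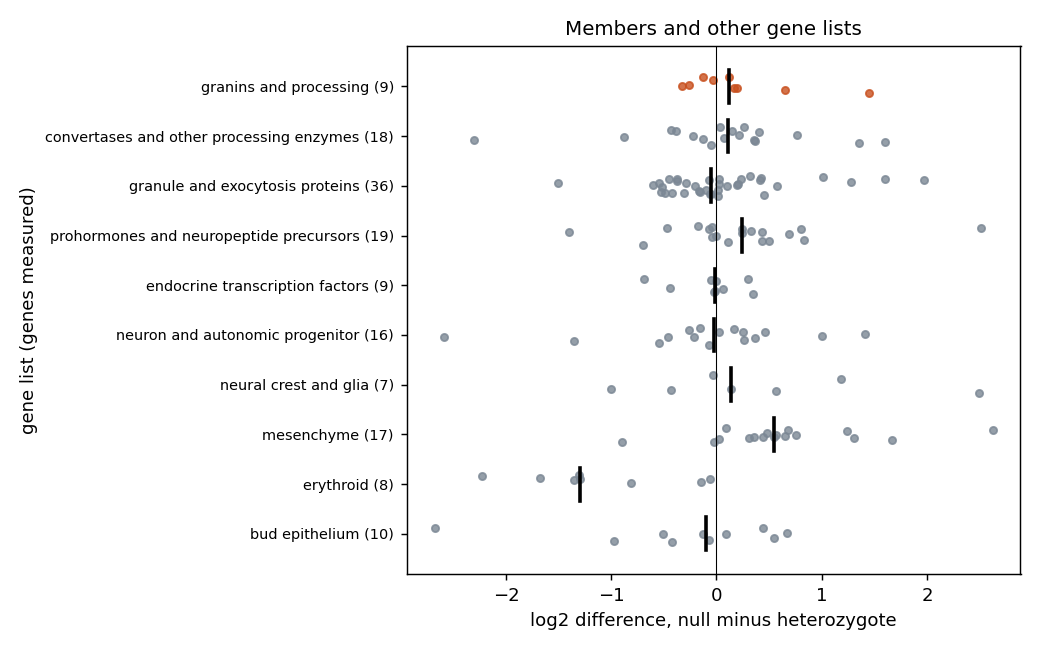
Log2 difference (null minus heterozygote, horizontal axis) of each gene at its brightest probe set, for the 9 members and for the other gene lists, with the number of measured genes in brackets. Each point is a gene, the vertical bar is the list's median, and vertical scatter within a list has no meaning; the members centre near 0 with Scg2 at the right, while mesenchyme markers lie mostly above 0 and erythroid markers below it.

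Marker lists of other cells that a dissected bud can hold were read on the same arrays. Mesenchyme markers had a median log2 difference of 0.55, with 15 of 17 higher in nulls and a summed intensity of 2626 and 2177 in heterozygotes against 2844, 2554 and 3121 in nulls. Twist1 was above background on no array. Erythroid markers had a median of -1.30, with 8 of 8 lower in nulls. Their sums were 9536 and 11971 in heterozygotes against 8842, 8218 and 7946 in nulls, and Hba-a1 was above background on no array. The brightest genes weigh most in these sums, Vim among mesenchyme and Hbb-y among erythroid markers. Bud epithelium markers had a median of -0.099, with 4 of 10 higher. In none of these lists did a gene pass in either limma fit, and their part in the members' values was not tested.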

How the data were processed

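The deposited table gives one linear intensity per probe set and array. Per the submitters' processing notes, GCOS and RMA were used, with no versions or roles given. The background step before deposit is not stated in those notes or the labels. Medians of the arrays differed by up to 0.354 (log2), so log2 values were taken without an offset and quantile normalised, which assumes equal distributions on all arrays. After 64 control probe sets were left out, 45037 were tested with limma 3.58.1 in R 4.3.3 (lmFit and eBayes, genotype as the sole term, two-sided, Benjamini-Hochberg over all probe sets, threshold 0.05). With 2 against 3 arrays an exact permutation test cannot go below p = 0.1, so none was run. The trended fit is eBayes with trend and robust set.

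Names came from the platform annotation and can be old; all 11 member probe sets kept their symbol in RefSeq. The probe set with the highest mean stood for its gene. The genes named were the members and, in each of 4 companion lists (other processing enzymes, granule and exocytosis proteins, precursors, endocrine factors), the 3 with the lowest untrended p. Markers of other cell types were given as lists; those named singly, and Gcg, were chosen after their values were seen, apart from Pdx1, Cdh1 and Epcam. The members and lists were chosen with earlier results of these data known. The fit was tested on simulated data. Alternatives covered the prior, normalisation, offset, dim values, dim probe sets, a replicate block, the probe set rule and each array left out.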

Additional observations from a re-analysis of the deposited data

How the results depend on the processing

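No member probe set passed in any of the 12 alternative fits. At an unadjusted p under 0.05 there were 0 to 2 members in each. Over all probe sets the trended fit called 8 (2219 at an unadjusted p under 0.05) and the other 11 alternatives called 0 in limma, against 2484 at an unadjusted p under 0.05 in the untrended fit. Of 110 member values under an alternative, 98 kept their sign and 12 reversed, the latter in 6 genes. Not all of these values could reverse. The difference of each member's brightest probe set was unchanged in the trended fit, with values raised to background and dim probe sets left out. The replicate block repeated the differences found without null replicate 3. Scg3 was -0.016 with median centring and -0.060 without normalisation, where the members' median took the same values. With arrays left out in turn the log2 difference ranged from -1.06 to 0.40 for Chga, -0.42 to 0.17 for Chgb, -0.41 to 0.34 for Cpe, -0.23 to 0.62 for Pcsk1, -0.83 to 0.31 for Ptprn2 and -0.55 to 0.80 for Scg3. The members' median ranged from -0.41 to 0.40. Scg2 stayed between 1.35 and 1.60, and its unadjusted p reached 0.052 without heterozygote replicate 2. Where 1 heterozygote array is left, it is assumed to vary like the nulls.

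Replicate numbers are shared by the genotypes, and deviations from the group means correlated at -0.017 for number 1 and 0.0080 for number 2. The 2 heterozygotes deviate by equal and opposite amounts, so these values are not separate checks. Whether the numbers mark pairs of arrays is not known. With the number as a replicate block limma called 0 probe sets (2515 at an unadjusted p under 0.05), Chgb was 0.046, Scg2 was 1.35 (adjusted p = 0.925) and the members' median was 0.067. The replicate block leaves null replicate 3 out of the genotype difference, since it has no partner. Values near background limit Scg5 and the dim probe set of Cpe.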
